A study of Rattus norvegicus with 3 samples.

Results

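The nuclear-encoded genes of respiratory complexes II to V were followed in rat adrenal medulla after 7 days (1 array) or 1 day (2 arrays, replicates a and b) of cold exposure. Members were all genes with a probe set whose only annotated symbol was Sdha, Sdhb, Sdhc, Sdhd or Cyc1 or began with Uqcr, Cox4, Cox5, Cox6, Cox7, Cox8 or Atp5. This gave 45 genes of 14217 with a singly annotated probe set, carried by 51 probe sets, and each gene was read from the probe set that had the highest mean log2 value of the 7-day array and 1-day array b. Complex II had 4 members, complex III 8, complex IV 17 and complex V 16. All groups share the cold exposure, and the labels give the tissue and the days in the cold, while strain, sex and age are not given there. Rats without cold exposure were not analysed here. Whether the 1-day pair stems from different rats is not stated, and p-values then measure only how far those arrays differ, which may be technical.

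The respiratory chain of the inner mitochondrial membrane passes electrons from nutrients to oxygen and pumps protons, and complex V uses the proton gradient to make ATP. Complex II, succinate dehydrogenase, is also an enzyme of the citric acid cycle and is encoded in the nucleus alone, whereas complexes III, IV and V combine subunits of the nuclear and the mitochondrial genome. In the adrenal gland, ATP drives catecholamine uptake into chromaffin granules, and steroid synthesis in the cortex takes place in part inside mitochondria. Cold exposure is known above all for raising mitochondrial heat production in brown fat, where some subunit isoforms shared with muscle are used.

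The 7-day array and 1-day array b resembled each other, whereas 1-day array a differed from both. The SD of the log2 difference over members kept by the intensity filter was 0.20 between the 7-day array and 1-day array b, 1.19 between the 7-day array and 1-day array a, and 1.23 between 1-day arrays a and b. For the beta-actin control, the 3′ probe set exceeded the 5′ one by a ratio of 8.87 on the 7-day array, 231 on 1-day array a and 6.11 on 1-day array b. The 18 spike-in control probe sets had a geometric mean of 21788 on the 7-day array, against 187534 and 16829 on 1-day arrays a and b. Each result that rests on array a is therefore given beside the value against array b alone, and the part of RNA quality or of the control signal in any result was not tested. Of 7 chromaffin cell markers 6 were measured, with a summed intensity of 1118880 on the 7-day array against 2346660 on 1-day array a and 936099 on 1-day array b. The sum follows its brightest genes. Dbh, Chga and Chgb read higher on array a than on array b, but Th, Pnmt and Slc18a1 read lower. Adrenal cortex markers were bright too (6 of 8 measured), summing to 941988 at 7 days against 1432420 and 717602 on 1-day arrays a and b. Of these, 4 read higher on array a than on array b, while Cyp11b1 and Nr5a1 read lower. Markers of both cell types were thus present on every array, but the sums do not give the amount of either cell type. In these bulk samples, fewer cells of a type and less RNA per cell cannot be told apart.

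Most members read slightly higher at 7 days than on 1-day array b, and of those kept by the intensity filter none by 2-fold. Over all 45 members the median log2 difference was 0.14, and 36 read higher and 9 lower. Over all 14217 genes the median was 0.04, with 7651 higher and 6566 lower. Of the 42 members that passed the filter on low intensity (mean log2 value over the arrays of at least 9.60, the median over probe sets), 33 read higher than array b, a share to be read against 48.5% of the 9252 genes kept. The median of those 42 was 0.14 and that of all genes kept was -0.01. Above both 1-day arrays lay 22 of the 42, against 25.5% of genes kept, and 1 lay below both, against 24.1%. Over all 45 members those counts were 23 above, 1 below and 21 in between, against 3225, 3666 and 7326 of all 14217 genes. At least 2-fold above array b were 0 of 42 members (0.843% of genes kept), and at least 2-fold below were also 0 (0.443%). The dim Cox7b2 and Cox6a2, which failed the filter, reached log2 differences of 1.015 and 1.138 with a pseudocount of 1, against 0.96 and 0.62 with the 16 used here.

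The size of these differences was close to what a change of scaling moves. With median centring of the arrays, the 42 members had a median of -0.05, with 18 higher and 24 lower, because that scaling moved the median of all genes kept to -0.19. Median centring lowers every difference from array b by the same amount, and 16 of the 45 members turned sign under it, against 6 with quantile normalisation and 3 with the trend removed. Members above both 1-day arrays then numbered 17, 16 and 15 in that order, against 22 with the values as deposited. The share of all genes kept that lay above both was computed for the deposited values only. These counts therefore cannot be read against a background. Set against all genes kept, the members stood 0.15 higher on both scales, 0.07 higher with quantile normalisation and 0.11 higher with an intensity trend removed. Adrenal cortex markers stood 0.34 to 0.57 above 1-day array b in 6 of 6 measured. Chromaffin markers stood above it in 5 of 6, with a median of 0.24, Th, Dbh, Pnmt, Chga and Chgb being higher and Slc18a1 lower (-0.40). The part of either cell type in the shift of the members was not tested.

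No member passed the test of 7 days against 1 day. With limma's moderated test over 15521 probe sets, adjusted after Benjamini and Hochberg, 0 of 42 members had an adjusted p under 0.05, and 0 had an unadjusted p under 0.05. Over all probe sets 0% were called higher and 0% lower, 70 passed 0.05 before adjustment, and no adjusted p was below 1. Of the members, Uqcrfs1 had the lowest unadjusted p in limma. Relative to the averaged 1-day pair it stood at 1.52 ± 0.97 on the log2 scale (SE from limma, adjusted p = 1), made up of 2.90 from array a and 0.15 from array b. With 1 array at 7 days, the fit takes its spread from the 1-day pair alone. It put all weight on the spread shared by probe sets of like intensity (infinite prior degrees of freedom). An SE is therefore not the spread of that gene's own 1-day pair. Atp5f1b, with a 1-day SD of 0.0042, had an SE of 1.12, and Uqcrfs1, with a 1-day SD of 1.94, had 0.97. A lack of calls does not show that members stayed the same.

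**Figure D1:**
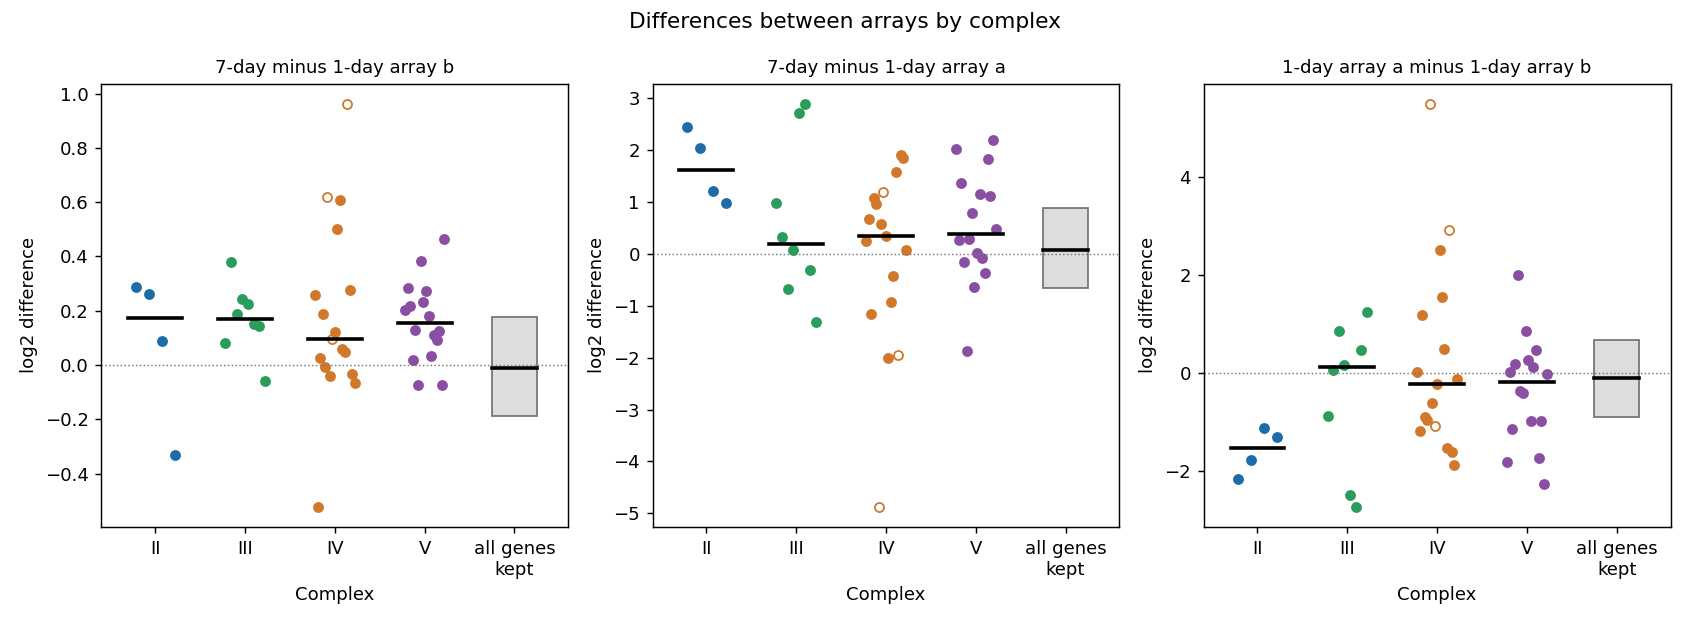
Log2 differences between arrays for each member, by complex, with the 7-day array minus 1-day array b (left), the 7-day array minus 1-day array a (middle) and 1-day array a minus 1-day array b (right). Points are genes, open points are the 3 members that did not pass the intensity filter, black bars are medians over all members of a complex, and the grey box spans the quartiles of all 9252 genes kept. The medians against 1-day array b lie between 0.10 and 0.17, and each turned negative over the members kept with median centring. In the right panel all 4 members of complex II lie below 0, while complex III is spread from -2.75 to 1.24.

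By complex, the median difference between the 7-day array and 1-day array b was 0.17 for complex II, 0.17 for complex III, 0.10 for complex IV and 0.15 for complex V over all members. Over the members kept, complex IV stood at 0.05 and the other medians were the same, since all members that failed the filter belong to complex IV. Set against the median of all genes kept, the complexes II, III, IV and V stood 0.19, 0.18, 0.07 and 0.17 higher. Complex IV was nearest to the other genes in all 10 settings tried with array b, down to 0.01 with quantile normalisation. Those settings share the same arrays, and median centring cannot change these values. Against array a instead, complex III was nearest to the other genes (0.12). Complexes II, IV and V then stood 1.55, 0.38 and 0.31 higher than all genes kept. Genes of a complex are not replicates, so the order of the complexes carries no test.

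**Figure D2:**
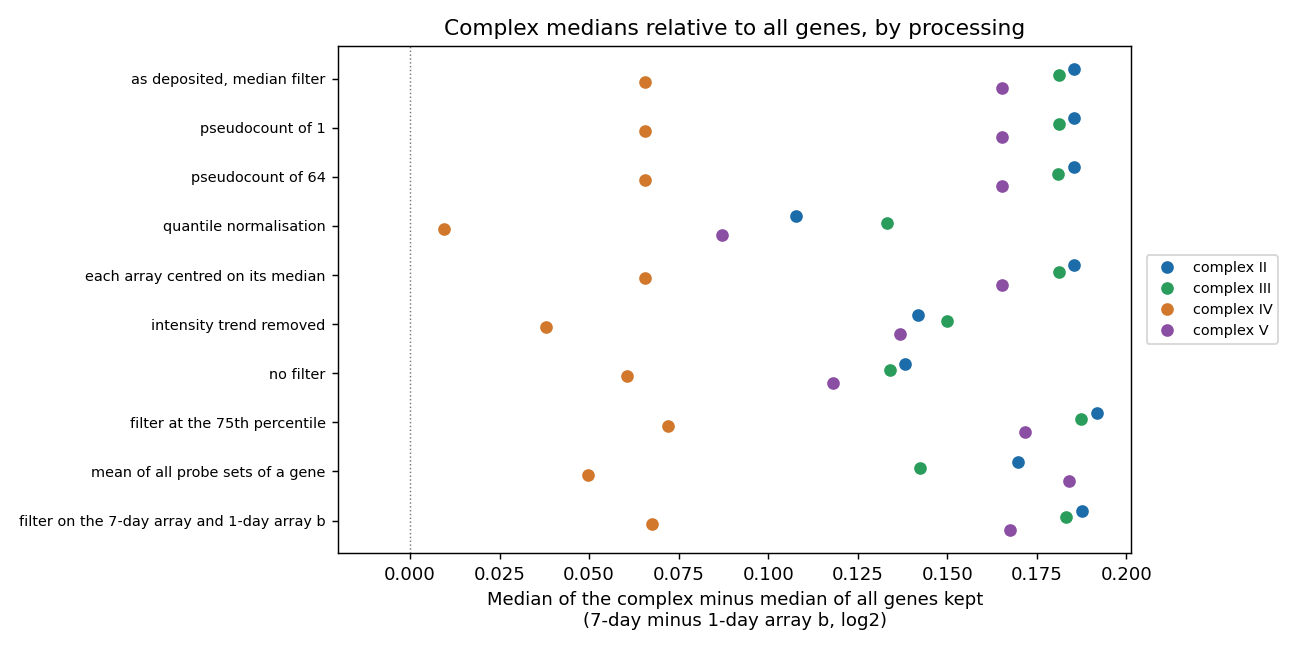
Median of each complex minus the median of all genes kept (x axis, log2, 7-day array minus 1-day array b). The y axis lists the processing as reported and each alternative that used 1-day array b. Complex IV lies between 0.01 and 0.07 in all settings shown, and complexes II, III and V lie between 0.09 and 0.19.

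In complex II the catalytic pair read higher at 7 days than on either 1-day array. Sdha, the flavoprotein that oxidises succinate, had an intensity of 69266 on the 7-day array, against 12607 and 56701 on 1-day arrays a and b. Sdhb, the iron-sulphur subunit that carries electrons onwards, had 59659 at 7 days, against 14539 and 49777 on 1-day arrays a and b. Both lay a small step above array b (log2 differences of 0.29 and 0.26) and a large one above array a (2.46 and 2.04).

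Of the membrane anchors of complex II, which bind ubiquinone, Sdhc lay above both 1-day arrays as deposited, like the catalytic pair. Sdhd did so only with its second probe set. Sdhc read 36902 on the 7-day array, against 15804 and 34740 on 1-day arrays a and b, a log2 difference of 0.09 from array b that turned to -0.09 with median centring. Sdhd read 15970 at 7 days, against 8095 and 20089 on 1-day arrays a and b, and lay between them (-0.33 from array b). A second probe set of Sdhd went the other way, with 10589 at 7 days against 5634 and 8633 on 1-day arrays a and b (0.29 from array b). The direction of Sdhd thus depends on the probe set.

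Complex III passes electrons from ubiquinol to cytochrome c through its redox subunits Uqcrfs1, the Rieske iron-sulphur protein, and Cyc1, cytochrome c1. Uqcrfs1 read 27465 on the 7-day array, against 3675 and 24736 on 1-day arrays a and b, and Cyc1 read 29997 against 15257 and 28373. Their log2 differences from array b were 0.15 and 0.08, and with median centring they became -0.03 and -0.10. The 7-day value lay above both 1-day arrays for each, but near array b and well away from array a.

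The core proteins of complex III, which hold the complex together on its matrix side, stood 0.24 (Uqcrc1, 0.06 with median centring) and 0.22 (Uqcrc2) above array b. Uqcrc1 read 54994 at 7 days, against 51975 and 46461 on 1-day arrays a and b, so its 3 values lay close together. Uqcrc2 read 50034 at 7 days, against 7592 and 42849 on 1-day arrays a and b, with array a alone far below. A dimmer second probe set of Uqcrc2 read 3567 at 7 days against 1015 and 4056, a log2 difference of -0.18 from array b.

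Among the small subunits of complex III, Uqcr10 was the highest against array b. It read 113434 at 7 days, against 90680 and 87275 on 1-day arrays a and b (0.38 from array b and 0.32 from array a). Its difference from array b was 0.25 with quantile normalisation and 0.20 with median centring. It was the member of this complex whose 1-day values were closest together. Uqcrq, a small ubiquinone-binding subunit, was the only member of the 45 that read below both 1-day arrays with the values as deposited, at 35151 against 86670 and 36636 on 1-day arrays a and b. Its difference from array b was -0.06, so that place rests on a small step. Uqcr11 read 47555 at 7 days against 75478 and 41724 on 1-day arrays a and b (0.19 from array b). Like Uqcrh, the hinge protein (0.14), it lay between the 1-day arrays, with array a highest.

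Complex IV, cytochrome c oxidase, surrounds its mitochondrially encoded core with nuclear subunits, several of which exist as paralogues used in different tissues. The 10 commonly used nuclear subunits measured had a median of 0.05 against array b, from -0.04 (Cox6b1) to 0.28 (Cox7c), with 7 higher and 3 lower. Cox4i1, which binds ATP and helps set the rate of the enzyme, read 104672 at 7 days against 88323 and 87476 on 1-day arrays a and b. Its 1-day values were nearly equal, and the 7-day value stood 0.24 and 0.26 above arrays a and b. The difference from array b was smaller with quantile normalisation (0.10) and median centring (0.08). Cox5b, a zinc-binding subunit, read 53887 at 7 days against 25429 and 47347 on 1-day arrays a and b (0.19 from array b). Cox7c, the highest of these subunits against array b, read 53332 against 14237 and 44018 on 1-day arrays a and b.

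Other common subunits of complex IV were level with array b. Cox6a1 read 57483 at 7 days against 29514 and 57819 on 1-day arrays a and b, and Cox6b1 read 50205 against 33756 and 51611. Cox8a read 44608 at 7 days against 12360 and 45597 on 1-day arrays a and b, with the 7-day value just under array b and array a far lower. Cox7a2l, which helps join complexes III and IV into supercomplexes, stood 0.06 above array b (-0.12 with median centring) and 0.42 below array a on the log2 scale, at 32011 against 42859 and 30713. Cox5a was read from a dim probe set (1854 at 7 days, against 4126 and 1823 on 1-day arrays a and b), because the other probe set that names it is also annotated to another gene. Such shared probe sets numbered 5 for these complexes, gave differences of 0.01 to 0.29 from array b, and were left out by the rule.

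**Figure D3:**
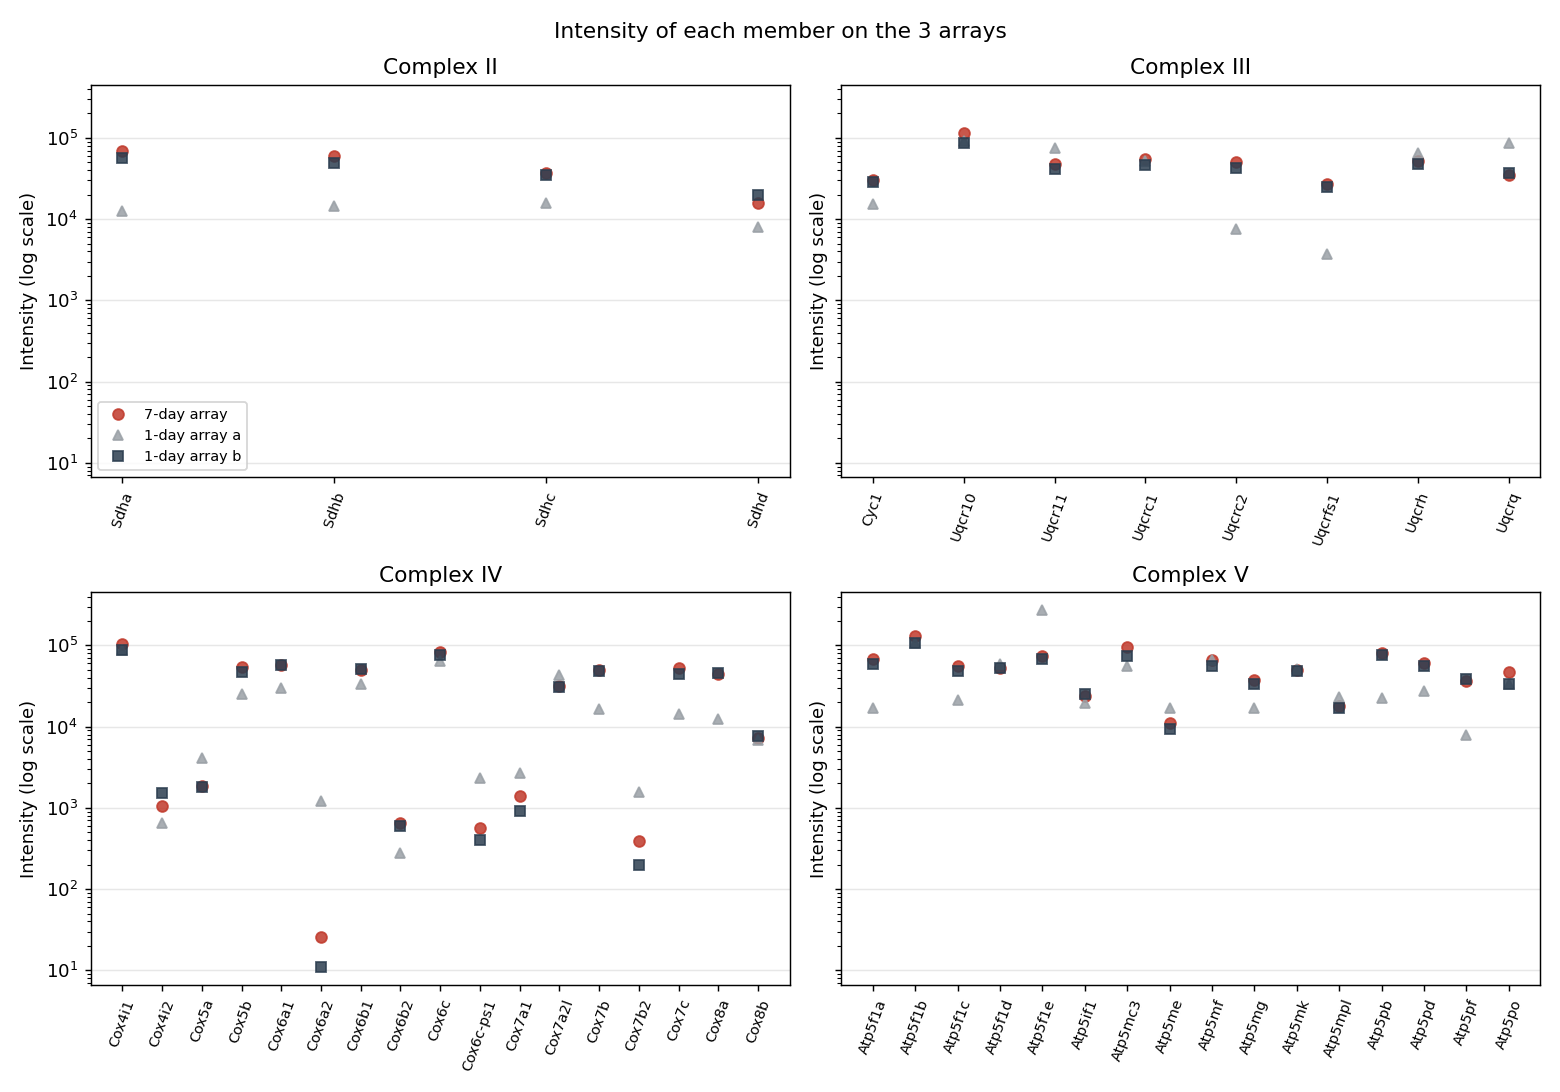
Intensity of each member (log axis) on the 7-day array, 1-day array a and 1-day array b, by complex and in order of symbol. Heights can be compared between arrays for one gene but not between genes, since probe sets differ in brightness. Symbols of the 7-day array and 1-day array b nearly overlap for most members. 1-day array a lies far below them for all of complex II and for members of each other complex, such as Uqcrc2, Uqcrfs1, Cox8a and Atp5pf. It lies far above them for others, such as Atp5f1e and Cox6a2.

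Paralogues of complex IV known from heart, skeletal muscle, lung or testis did not move as a group. Cox4i2, the isoform known from lung and linked to low oxygen, read 1043 at 7 days against 651 and 1506 on 1-day arrays a and b, and was the lowest member against array b (-0.52). Cox7a1, of muscle and brown fat, read 1401 at 7 days against 2688 and 915 on 1-day arrays a and b (0.61 from array b), and was the highest of the members kept. Both lay between the 1-day arrays, so the direction depended on which 1-day array was used.

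Cox8b, which rodents use in muscle and brown fat, had nearly the same intensity on all arrays, with 7260 at 7 days against 6921 and 7603 on 1-day arrays a and b. Its log2 difference was -0.07 from array b and 0.07 from array a. Cox6a2, the muscle partner of Cox6a1, read 25.5 at 7 days and 11.0 on 1-day array b, but 1204 on 1-day array a, and it did not pass the filter. Neither did Cox6b2 and Cox7b2, both known from testis. Cox6b2 read 650 at 7 days against 276 and 607 on 1-day arrays a and b, and Cox7b2 read 397 against 1581 and 196. Cox6b2 (0.10 from array b) turned to -0.07 with quantile normalisation, -0.09 with the trend removed and -0.09 with median centring. Cox6c-ps1, a pseudogene by its symbol, read 572 at 7 days against 2331 and 399 on 1-day arrays a and b, and was close to the filter's limit. Its probes may share sequence with Cox6c, so its reading is uncertain.

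Markers of the tissues that use these isoforms were mostly dim. Of 8 brown fat markers 7 were measured, and Ucp1, the defining gene of brown fat, read 35.1 at 7 days against 156 and 31.1 on 1-day arrays a and b. The brown fat list summed to 20296 at 7 days against 11024 and 17492 on 1-day arrays a and b, almost all of it from Cidea (18241 against 6291 and 15428). Of 13 skeletal muscle markers 12 were measured, summing to 67484 at 7 days against 152891 and 49866, and the probe set annotated to Myh1 made up most of that sum (64328 against 144760 and 47747). Ckm, muscle creatine kinase, read 30.6 at 7 days against 349 and 38.8 on 1-day arrays a and b. Fat markers shared by white and brown fat (5 of 5 measured) summed to 3243 against 7313 and 4111. The part of these tissues in the values of Cox7a1 and Cox8b was not tested.

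The promoters of the paralogues Cox8a and Cox8b and of Cox6a2 are shown, the first because it holds the most motif matches of any member. The RefSeq windows of GRCr8 below run from 250 bases before to 50 bases after the annotated start, and capitals mark matches to the motifs described further on. Cox8a (chr1:213833574-213833873, minus strand) holds 4 matches, whereas Cox8b (chr1:205408224-205408523, minus strand) and Cox6a2 (chr1:192219667-192219966, minus strand) hold 0. CpG dinucleotides number 16 in the window of Cox8a, 5 in that of Cox8b and 5 in that of Cox6a2. A lack of matches did not set restricted isoforms apart, since of the common complex IV subunits with a window Cox4i1, Cox5a, Cox6b1, Cox7a2l, Cox7b and Cox7c also held 0, and Cox5b held 1.
Cox8a: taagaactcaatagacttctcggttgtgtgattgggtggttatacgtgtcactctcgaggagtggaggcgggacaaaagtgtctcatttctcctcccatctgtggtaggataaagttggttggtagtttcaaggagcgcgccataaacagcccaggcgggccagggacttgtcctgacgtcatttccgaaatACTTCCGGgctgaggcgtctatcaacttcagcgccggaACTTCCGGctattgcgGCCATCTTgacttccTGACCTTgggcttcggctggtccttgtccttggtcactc
Cox8b: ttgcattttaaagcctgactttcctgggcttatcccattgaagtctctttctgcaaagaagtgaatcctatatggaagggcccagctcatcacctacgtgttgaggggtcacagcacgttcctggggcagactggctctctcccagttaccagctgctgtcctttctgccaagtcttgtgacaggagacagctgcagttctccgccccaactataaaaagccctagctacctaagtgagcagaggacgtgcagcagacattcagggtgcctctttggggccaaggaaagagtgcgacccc
Cox6a2: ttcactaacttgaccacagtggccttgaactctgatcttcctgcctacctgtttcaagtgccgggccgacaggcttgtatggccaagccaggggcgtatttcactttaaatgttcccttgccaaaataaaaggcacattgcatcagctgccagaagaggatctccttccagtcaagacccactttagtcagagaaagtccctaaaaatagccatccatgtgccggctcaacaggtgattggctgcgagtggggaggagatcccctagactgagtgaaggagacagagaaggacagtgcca

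Complex V, the ATP synthase, couples the proton flow through its membrane part Fo to ATP synthesis in its catalytic head F1. Of its 16 members 14 read higher at 7 days than on array b, with a range of -0.07 to 0.46. In F1 all 5 subunits read higher than array b, by 0.02 (Atp5f1d) to 0.28 (Atp5f1b), though with median centring Atp5f1d turned to -0.165 and Atp5f1e (0.13) to -0.05. Atp5f1b, the catalytic beta subunit, read 131103 at 7 days against 108085 and 107640 on 1-day arrays a and b, one of the few members on which the 1-day pair was level. Its 0.28 from array b became 0.09 with quantile normalisation and 0.10 with median centring. Atp5f1a, the alpha subunit, read 68983 against 16858 and 59901, and Atp5f1c, the rotating gamma subunit, 55913 against 21559 and 48141. Atp5f1e, the small epsilon subunit, was by contrast highest on array a, at 74034 on the 7-day array against 270925 and 67737 on 1-day arrays a and b.

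The highest members of complex V against array b belong to Fo and the stalk. Atp5po, the stalk subunit that confers sensitivity to oligomycin, read 46569 at 7 days against 33123 and 33743 on 1-day arrays a and b. Its 1-day values differed by 0.03 on the log2 scale, and the 7-day value stood 0.46 above array b and 0.49 above array a. With quantile normalisation the difference from array b was 0.44, with the trend removed 0.43 and with median centring 0.28. The mean of both its probe sets gave 0.83. That mean includes a dim probe set that failed the filter and stood 1.19 from array b but -2.61 from array a. Atp5mc3, one of the genes for the c subunit of the proton-driven ring, followed at 95632 against 55146 and 73423 on 1-day arrays a and b (0.38 from array b). The other c subunit genes were read only by shared probe sets and are not members.

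The remaining Fo members lay between -0.07 and 0.27 of array b. Atp5pf, a stalk subunit, read 36406 at 7 days against 7939 and 38325 on 1-day arrays a and b, and Atp5me, a small membrane subunit, 11131 against 17201 and 9475. Atp5if1, the inhibitor that blocks ATP breakdown by the enzyme when the proton gradient collapses, read 23963 at 7 days against 19474 and 25200 on 1-day arrays a and b (-0.07 from array b). It lay between the 1-day arrays, and its direction turned to 0.20 when the mean of its 3 probe sets was used. The promoter windows of Atp5po (chr11:44657434-44657733, minus strand) and Atp5me (chr14:1464610-1464909, plus strand) are shown because both carry the NRF1 motif on both strands at one site, together with a YY1 motif.
Atp5po: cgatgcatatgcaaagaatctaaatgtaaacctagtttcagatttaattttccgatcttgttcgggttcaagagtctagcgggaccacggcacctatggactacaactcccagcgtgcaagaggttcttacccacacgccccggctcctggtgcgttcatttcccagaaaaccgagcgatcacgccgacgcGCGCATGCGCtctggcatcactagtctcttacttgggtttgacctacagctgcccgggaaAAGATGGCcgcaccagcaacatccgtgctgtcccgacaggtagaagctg
Atp5me: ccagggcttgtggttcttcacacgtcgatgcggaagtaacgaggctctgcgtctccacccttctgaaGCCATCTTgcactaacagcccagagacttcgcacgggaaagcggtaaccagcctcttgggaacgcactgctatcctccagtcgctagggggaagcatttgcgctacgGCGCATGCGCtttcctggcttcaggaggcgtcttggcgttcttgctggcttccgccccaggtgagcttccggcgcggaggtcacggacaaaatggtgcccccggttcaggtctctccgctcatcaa

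Second probe sets did not always bear out the first. Of the 6 further probe sets, 5 read higher at 7 days than on array b and 1 lower, and for Sdhd, Uqcrc2 and Atp5if1 at least 1 of them had the opposite sign to the chosen one. The dim second probe sets of Atp5po (446 at 7 days, 2811 and 186 on 1-day arrays a and b), Atp5me (342 against 2486 and 206) and Atp5if1 (490 against 1270 and 306) did not pass the filter. They stood 1.19, 0.69 and 0.65 above array b and -2.61, -2.80 and -1.35 relative to array a. The dim members Cox6a2, Cox7b2 and Cox6c-ps1 had the same order of arrays, with array a highest and array b lowest. Cox6b2 and Cox4i2, dim as well, went the other way, with array a lowest. Over all probe sets the median intensity was itself highest on array a, at 1583 against 675 on the 7-day array and 593 on 1-day array b. Array a read above array b for 8261 of all 14217 genes, but for only 4319 of the 9252 kept. High readings on array a were thus common among dim genes and not particular to these members.

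The complexes parted most between the 1-day arrays. For array a minus array b, the median log2 difference over members kept was -1.54 in complex II, 0.11 in complex III, -0.42 in complex IV and -0.20 in complex V, against -0.10 for all genes kept. With no filter, complex IV stood at -0.23, against 0.30 for all genes. Of the 42 members kept, 14 were at least 2-fold lower on array a, against 22.9% of genes kept, and 5 at least 2-fold higher, against 17.1%. All 4 members of complex II were among the lower ones, though the second probe set of Sdhd, at -0.61, was not 2-fold lower. Complex III was mixed, with Uqcrfs1 (-2.75), Uqcrc2 (-2.49) and Cyc1 (-0.89) lower on array a. Its other core protein Uqcrc1 stood at 0.16 and the 4 small subunits at 0.06 to 1.24. Both replicates carry the same label, so these are differences within a group. They set the spread against which the small shifts at 7 days have to be read. Depending on the scaling, the medians of complexes III, IV and V changed sign, while that of complex II was negative in each setting tried.

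Promoter windows were found for 38 of the 45 members, and Atp5pd, Cox4i2, Cox6a1, Cox6c, Cox6c-ps1, Cyc1 and Uqcr11 had none in the table used. Searched on both strands were the letters GCGCATGCG for NRF1, CCGGAAGT for GABP (also called NRF2), AAGATGGC for YY1 and AAGGTCA for the core site of ERR-alpha, all factors known as regulators of nuclear genes for mitochondria. At least 1 match was present in 16 of 38 windows (42.1%), against 19.4% of the 7709 windows of genes kept and 12.6% of all 27457 windows. For NRF1 the shares were 10.5%, 3.63% and 1.66% in that order, for GABP 13.2%, 8.87% and 4.01%, for YY1 18.4%, 6.04% and 3.44%, and for ERR-alpha 21.1%, 2.80% and 4.37%. Complex V held a match in 9 of 15 windows, complex IV in 2 of 13, complex III in 3 of 6 and complex II in 2 of 4. No match of one motif overlapped one of another among the members. The 4 members with an NRF1 match, Uqcrc1, Atp5me, Atp5mg and Atp5po, stood at a median of 0.24 above array b (from 0.18 to 0.46). Relative to array a they stood at 0.08, -0.63, 1.16 and 0.49 in that order. Uqcrc1, Atp5me and Atp5po also hold a YY1 match. Against array b, the 34 without an NRF1 match stood at a median of 0.14 (from -0.33 to 0.96). For GABP the medians were 0.14 with and 0.18 without a match, for YY1 0.23 and 0.15, and for ERR-alpha 0.12 and 0.20, so no common direction went with a match. These matches describe letters in the windows, and a window without one says nothing about the factor.

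**Figure D4:**
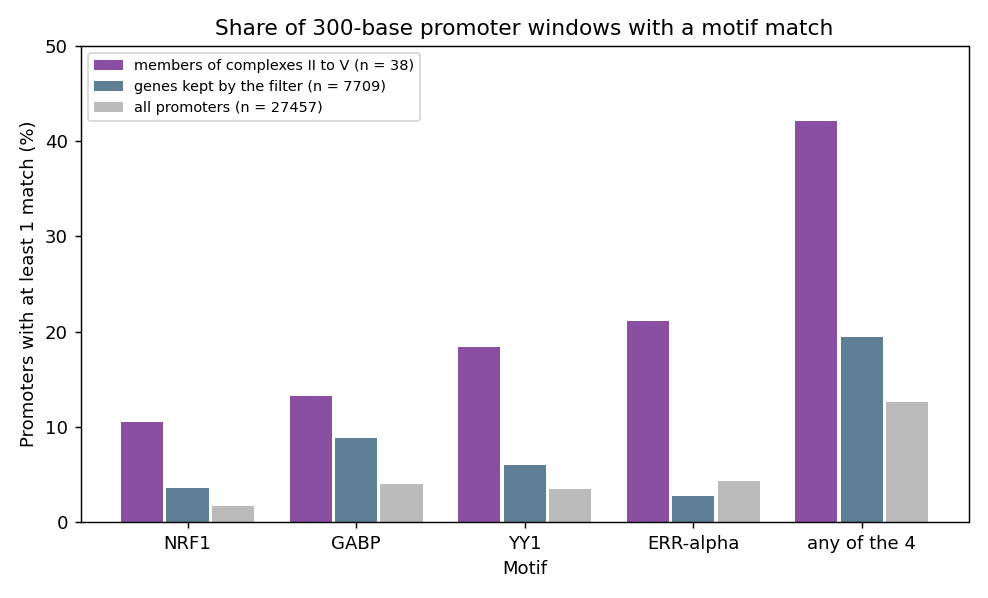
Share of promoter windows (y axis, percent) with at least 1 match to each motif (x axis), for the 38 members with a window, the 7709 genes kept by the filter with a window, and all 27457 windows. The bars of the members are the highest for each motif, with 42.1% of members, 19.4% of genes kept and 12.6% of all windows holding any of them.

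Other genes of the pathway gave a similar median for complex I subunits, a smaller one for assembly factors and mixed values for regulators. The 36 complex I subunits measured, all kept, had a median of 0.15 against array b, close to the 0.14 of complexes II to V. Of them 32 read higher than array b, 25 above both 1-day arrays and 1 below both. Of all genes kept, 48.5% read higher than array b, 25.5% lay above both and 24.1% below both. The counts over kept genes that follow are to be read against these shares. Of 45 assembly factors of complexes II to V, which help build the complexes without staying in them, 42 were measured and 38 kept, with a median of 0.07 over those kept, 16 above both 1-day arrays and 6 below both. All 13 regulators of mitochondrial genes were measured and 9 kept, with a median of -0.08, 0 above both and 3 below both among those kept. Over all 13 the median was -0.03, with 2 above both and 4 below both, against 3225 above and 3666 below of all 14217 genes. The 2 regulators above both did not pass the filter. Ppargc1a, the cold-inducible coactivator of mitochondrial genes, read 323 at 7 days against 72.2 and 11.6 on 1-day arrays a and b (3.62 from array b). Both 1-day values of Ppargc1a were under 100, near the floor, so the size of its difference depends on the pseudocount. Polrmt, the mitochondrial RNA polymerase, read 1150 against 268 and 1048. Among the regulators whose motifs were searched, Nrf1 read 1116 at 7 days against 1841 and 932 on 1-day arrays a and b, Gabpa 1198 against 1951 and 1745, Esrra 980 against 1000 and 1052, and Yy1 23984 against 22063 and 24526. Gabpa lay below both 1-day arrays, as did Esrra by a small step, and Nrf1 and Yy1 lay between them. No gene of these lists was called by limma, which called no probe set at all.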

How the data were processed

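The authors deposited 1 linear intensity per probe set and array (31099 probe sets, 3 arrays), already summarised and scaled. The 2% trimmed means were 2501 on all arrays, so a common scaling is inferred from the values, and the software is not given in the sources used here. Such scaling hides differences in total RNA. Intensities were turned into log2(intensity + 16), which understates changes of dim genes. The 57 control probe sets were left out. Symbols came from the platform annotation, of which 20758 of 20826 singly annotated probe sets were found by Entrez identifier in the RefSeq gene table (GRCr8), used for names. The brighter probe sets by mean log2 value, from the median up, were kept (15521 of 31042). limma 3.58.1 in R 4.3.3 (lmFit, eBayes with an intensity trend, two-sided, Benjamini-Hochberg over all kept) compared 7 days with 1 day on 1 residual degree of freedom. The code was first run on simulated data with an even and smaller spread than these arrays. That run does not show how the test performs here. Comparisons of 2 arrays carry no test, and precision is limited by having 3 arrays. Python 3.11.15 did the rest. Alternatives were pseudocounts of 1 and 64, quantile normalisation, median centring, removal of a lowess trend (span 0.5), other filters, averaging a gene's probe sets, and limma without a trend or with robust = TRUE. Each 1-day array was also left out. A filter on the 7-day array and 1-day array b, and counts without 1-day array a, were added after the data were seen. Named genes were fixed by role, by paralogy, or as the 2 highest and 2 lowest of each complex in either difference; regulators, markers, second probe sets and the array values of Cox7b2 named beside them were chosen after their values were seen. The members and lists were chosen with earlier results of these data known.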

Additional observations from a re-analysis of the deposited data

How the results depend on the processing

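The 0 members called by limma held in all 9 alternatives that could be fitted, and no member passed 0.05 before adjustment in any of them. Leaving out either 1-day array leaves limma no residual degree of freedom, so it gave no value there, and limma was not run with the trend removed. No paired analysis was possible because the groups share only the replicate letter a. Members below both 1-day arrays numbered 6 with quantile normalisation, 2 with median centring and 6 with the trend removed, against 1 as reported, and those above both 16, 17 and 15, against 22. Shares over all genes kept were not computed for these alternatives, so the counts have no background there. Without 1-day replicate a, an alternative added after seeing the data, 33 lay above the remaining 1-day array and 9 below. With median centring, the median against array b was -0.046 for the members and -0.0078, -0.012, -0.13 and -0.028 for complexes II, III, IV and V. For complex III it was 0.137 (quantile normalisation) and 0.141 (trend removed). For array a minus array b, complexes III, IV and V gave 0.33, -0.10 and 0.044 with quantile normalisation. The values with the trend removed were 0.65, 0.074 and 0.33. With median centring complexes II, III, IV and V gave -2.93, -1.28, -1.81 and -1.59. Complex IV gave -0.23 with no filter and -0.75 with the 75th percentile or the filter on the 7-day array and array b. Complex V gave 0.057 with averaged probe sets. Of all 45 members, 6 turned sign against array b with quantile normalisation, 16 with median centring, 3 with the trend removed, 1 with averaged probe sets and 21 without replicate b. The following values are those of members whose levels are given by array under the naming rule. Cox6b2 gave -0.070 after quantile normalisation and -0.094 after the trend was removed. With median centring Atp5f1e gave -0.054, Cox5a -0.16, Cox6b2 -0.086, Cox7a2l -0.12, Cyc1 -0.10, Sdhc -0.095 and Uqcrfs1 -0.031. Atp5if1 gave 0.20 with averaged probe sets. Without 1-day replicate b, with array a as the 1-day value, the members gave 0.53 and complexes II, III, IV and V 1.63, 0.20, 0.46 and 0.40. Members named by that rule whose sign turned there were Atp5f1e (-1.87), Atp5if1 (0.30), Atp5me (-0.63), Atp5pf (2.19), Cox4i2 (0.67), Cox5a (-1.15), Cox6a1 (0.96), Cox6a2 (-4.88), Cox6b1 (0.57), Cox6c-ps1 (-1.997), Cox7a1 (-0.93), Cox7a2l (-0.42), Cox8a (1.85), Cox8b (0.069), Sdhd (0.98) and Uqcr11 (-0.67). The others were Atp5f1d, Atp5mk, Atp5pb, Cox6c and Cox7b with quantile normalisation, these 5 and Atp5mg, Atp5mpl, Atp5pd and Uqcrh with median centring, Atp5f1d and Atp5mk with the trend removed, and Atp5f1d, Atp5mk, Atp5mpl, Cox7b2 and Uqcrh without replicate b. The cause of these changes was not tested. Dim probe sets, such as those of Cox6a2 and Cox7b2, limit what can be said of their genes.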
